A study of Mus musculus with 12 samples.

Results

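The 10 genes described here encode the surface complex, the co-receptors and the killing granules of T cells. They are the 3 chains of CD3 (Cd3d, Cd3e and Cd3g), the co-receptors Cd4, Cd8a and Cd8b1, the granzymes Gzma and Gzmb, perforin (Prf1) and the granule membrane protein Nkg7. They were chosen by gene symbol from the 23420 genes of the count table, and all 10 were in it. The libraries are of whole pyloric tissue, where the stomach opens into the duodenum, and form 4 groups of 3: CEA424-SV40 T Ag transgenic mice at 80 days of age (D80), wild-type mice at D80, transgenic mice at 60 days (D60) and wild-type mice at D60. All 12 libraries came from the C57BL/6 strain, and their labels give no treatment. The transgene places the viral oncoprotein SV40 large T antigen behind a promoter fragment of the human carcinoembryonic antigen gene, which is active in epithelial cells of the pylorus. Whether each library is a different animal is not stated in the labels, and the p-values measure the spread between libraries.

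A T cell recognises antigen with a receptor whose signal is carried into the cell by the CD3 chains. CD4 marks helper and regulatory T cells and, in part, macrophages and dendritic cells, while CD8 marks killer T cells. CD8 made of the alpha and the beta chain is typical of conventional killer T cells, and many lymphocytes of the intestinal epithelium carry CD8 of alpha chains alone. Killer T cells and natural killer cells release granules in which perforin opens the target membrane for granzymes, which trigger cell death, and Nkg7 takes part in the release of those granules. The pylorus borders the duodenum, whose epithelium is rich in such lymphocytes. The title of the study calls this tumour immune-excluded, and the comparisons below ask how much RNA of these genes the pylorus held in each genotype at each age.

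In GRCm38 the 3 CD3 genes lie side by side on chromosome 9. Cd3g (44969572 to 44980431) and Cd3d (44981786 to 44987339) face away from each other with 1354 bases between them, and Cd3e (44998740 to 45009627) follows 11400 bases beyond. Cd8b1 (71322788 to 71337494) and Cd8a (71373427 to 71379173) lie 35932 bases apart on chromosome 6, which also holds Cd4 (124864692 to 124888221). The annotation places an antisense gene and, on the same strand, a second gene of the type TEC over Cd3e. The strand setting of the counting is not given in the sources used here, so reads of Cd3e and its antisense neighbour could not be separated, and no strand setting separates reads shared with the gene on the same strand. The other 9 genes overlapped no annotated gene.

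Promoter sequences were matched to RefSeq (GRCm38.p6, from 250 bases before to 50 after the start of the gene) for 8 of the 10 genes, and the 4 granule genes are shown because they share a motif. Capitals mark the letters TGTGGT, the core bound by the RUNX transcription factors, which include Runx3 of killer T cells, or their complement on the other strand.
Gzma, chr13:113100932-113101231, minus strand: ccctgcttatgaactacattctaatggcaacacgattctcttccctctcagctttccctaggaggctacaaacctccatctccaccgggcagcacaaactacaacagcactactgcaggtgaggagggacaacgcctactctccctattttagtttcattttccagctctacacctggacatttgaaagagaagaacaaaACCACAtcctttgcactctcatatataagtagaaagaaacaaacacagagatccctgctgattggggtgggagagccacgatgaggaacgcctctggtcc
Gzmb, chr14:56262285-56262584, minus strand: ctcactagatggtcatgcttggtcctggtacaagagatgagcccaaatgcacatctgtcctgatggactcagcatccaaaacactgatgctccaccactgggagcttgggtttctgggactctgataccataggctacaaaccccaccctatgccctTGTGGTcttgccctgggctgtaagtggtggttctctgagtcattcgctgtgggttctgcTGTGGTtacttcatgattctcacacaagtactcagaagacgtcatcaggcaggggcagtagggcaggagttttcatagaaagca
Prf1, chr10:61297586-61297885, plus strand: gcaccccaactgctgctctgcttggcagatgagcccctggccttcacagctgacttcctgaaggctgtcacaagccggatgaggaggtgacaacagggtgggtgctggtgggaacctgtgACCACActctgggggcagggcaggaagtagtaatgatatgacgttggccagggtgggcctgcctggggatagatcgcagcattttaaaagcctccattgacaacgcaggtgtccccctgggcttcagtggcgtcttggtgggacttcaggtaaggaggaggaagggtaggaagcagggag
Nkg7, chr7:43436888-43437187, plus strand: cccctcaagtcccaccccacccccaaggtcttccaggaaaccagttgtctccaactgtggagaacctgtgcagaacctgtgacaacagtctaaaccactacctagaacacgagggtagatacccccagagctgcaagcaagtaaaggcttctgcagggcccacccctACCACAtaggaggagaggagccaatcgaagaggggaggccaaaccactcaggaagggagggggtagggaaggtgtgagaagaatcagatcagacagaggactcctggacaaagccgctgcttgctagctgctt
The letters TGTGGT, searched on both strands, stood in 4 of the 8 promoters, those of Gzma, Gzmb, Prf1 and Nkg7, and in 16.8% of all 32851 promoters of the same length. Gzmb held them at 2 places, 93 and 34 bases before the start. Of 3 further motifs searched in the same way, TGACTCA of the AP-1 factors stood in Gzmb and in 5.2% of all promoters, and AGATAA of the GATA factors stood in Cd3g and in 11.2%. ACCGGAAG of the ETS factors stood in none of the 8 and in 2.3% of all. A match describes the letters and does not show that a factor binds there.

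Total counts per library were between 20121600 and 27633715. Levels are given as raw counts and as CPM (counts scaled to a total of 1e+06) scaled for library composition with TMM factors (trimmed mean of M-values), on which scale 3 counts, taken as the floor, were 0.0901 to 0.185 CPM per library. The tissue label fitted the markers, since 9 genes of the pyloric epithelium summed to 40955 to 215709 CPM per library. Also detected in all libraries were 14 genes of duodenal enterocytes, which summed to at most 12371 CPM. Libraries differed in neighbouring tissue: the 14 genes of a duodenal enterocyte list summed to 1537 to 3768 CPM in transgenic D80 libraries, and to 424, 2806 and 12371 CPM in wild-type D80 replicates 1, 2 and 3. At D60 the same list summed to 512 to 1442 CPM in transgenic and 986 to 1381 CPM in wild-type libraries. A list of 12 pancreatic acinar genes summed to 763 to 4344 CPM in transgenic D80 libraries and 44.0 to 353 CPM in wild-type D80 libraries. Sex transcripts also differed. Xist, expressed from the inactive X chromosome, marked 2 of 3 transgenic D80, 3 of 3 wild-type D80, 3 of 3 transgenic D60 and 0 of 3 wild-type D60 libraries. Genotype and sex therefore could not be told apart at D60, nor age and sex in wild-type mice. The interaction of genotype and age contains both of these comparisons and carries the same limit.

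The CD3 chains were low throughout and higher in every transgenic D80 library than in every transgenic D60 library. In bulk tissue, fewer cells of a type and less RNA per cell cannot be told apart. Cd3d had 29, 42 and 41 counts in transgenic D80 libraries, against 0, 10 and 45 in wild-type D80 libraries. At D60 it had 1, 10 and 10 counts in transgenic libraries and 1, 4 and 2 in wild-type libraries. The wild-type D80 libraries therefore ran from none to more than any transgenic library. Cd3e had 51, 46 and 67 counts in transgenic D80 libraries, against 9, 33 and 106 in wild-type D80 libraries, and 7, 6 and 6 in transgenic D60 libraries, against 0, 0 and 4 in wild-type D60 libraries. Cd3g had 35, 66 and 73 counts in transgenic D80 libraries, against 2, 20 and 130 in wild-type D80 libraries, and 8, 11 and 8 in transgenic D60 libraries, against 1, 11 and 3 in wild-type D60 libraries. For all 3 chains the highest value of the series was that of wild-type D80 replicate 3, and wild-type D80 replicate 1 lay within the range of the D60 libraries or close to it. In CPM, Cd3e averaged 1.77 ± 0.279 in transgenic D80 and 2.14 ± 2.20 in wild-type D80 libraries (SD, n = 3 each), so the SD of the wild-type group exceeded its mean.

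Cd4 was the member with the most even values, relative to its mean, in both D80 groups. It had 223, 221 and 237 counts in transgenic D80 libraries, against 34, 70 and 80 in wild-type D80 libraries. At D60 it had 35, 65 and 112 counts in transgenic libraries and 10, 43 and 28 in wild-type libraries. Every transgenic D80 library stood above all 9 others, and the D60 groups overlapped. The means were 7.40 ± 0.727 CPM in transgenic D80, 2.65 ± 1.11 in wild-type D80, 2.97 ± 1.69 in transgenic D60 and 1.33 ± 0.704 in wild-type D60 libraries.

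The 2 chains of CD8 differed in where they were highest. Cd8a, the alpha chain, had 41, 57 and 35 counts in transgenic D80 libraries, against 4, 30 and 156 in wild-type D80 libraries. At D60 it had 5, 4 and 8 counts in transgenic libraries and 1, 6 and 2 in wild-type libraries. Wild-type D80 replicate 3 held the highest count of the series and replicate 1 one in the D60 range. Cd8b1, the beta chain, had 14, 13 and 23 counts in transgenic D80 libraries, against 1, 2 and 14 in wild-type D80 libraries. At D60 it had 1, 1 and 2 counts in transgenic libraries and 0, 2 and 1 in wild-type libraries, 3 counts over that group, which is the floor. Outside the transgenic D80 group, wild-type D80 replicate 3 was the only library with over 2 counts of Cd8b1.

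The granule genes spread most in the wild-type D80 group. Gzma, a granzyme of killer and natural killer cells, had 172, 163 and 74 counts in transgenic D80 libraries, against 9, 164 and 1083 in wild-type D80 libraries, and 23, 5 and 37 in transgenic D60 libraries, against 8, 17 and 8 in wild-type D60 libraries. Gzmb, the granzyme that activates caspases in target cells, had 64, 83 and 49 counts in transgenic D80 libraries, against 3, 60 and 294 in wild-type D80 libraries. At D60 Gzmb had 12, 4 and 9 counts in transgenic and 0, 11 and 3 in wild-type libraries. Both granzymes had over 3 times as many counts in wild-type D80 replicate 3 as in any transgenic library. Nkg7 had 27, 18 and 16 counts in transgenic D80 libraries, against 2, 19 and 90 in wild-type D80 libraries, and 3, 6 and 4 in transgenic D60 libraries, against 0, 2 and 4 in wild-type D60 libraries. Prf1 was barely detected, with 2, 5 and 0 counts in transgenic D80 libraries, against 3, 4 and 9 in wild-type D80 libraries, and 0, 1 and 0 in transgenic D60 libraries, against 0, 0 and 0 in wild-type D60 libraries. No library reached 10 counts of Prf1, and both D60 groups were at or under the floor of 3 counts over the group.

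**Figure D1:**
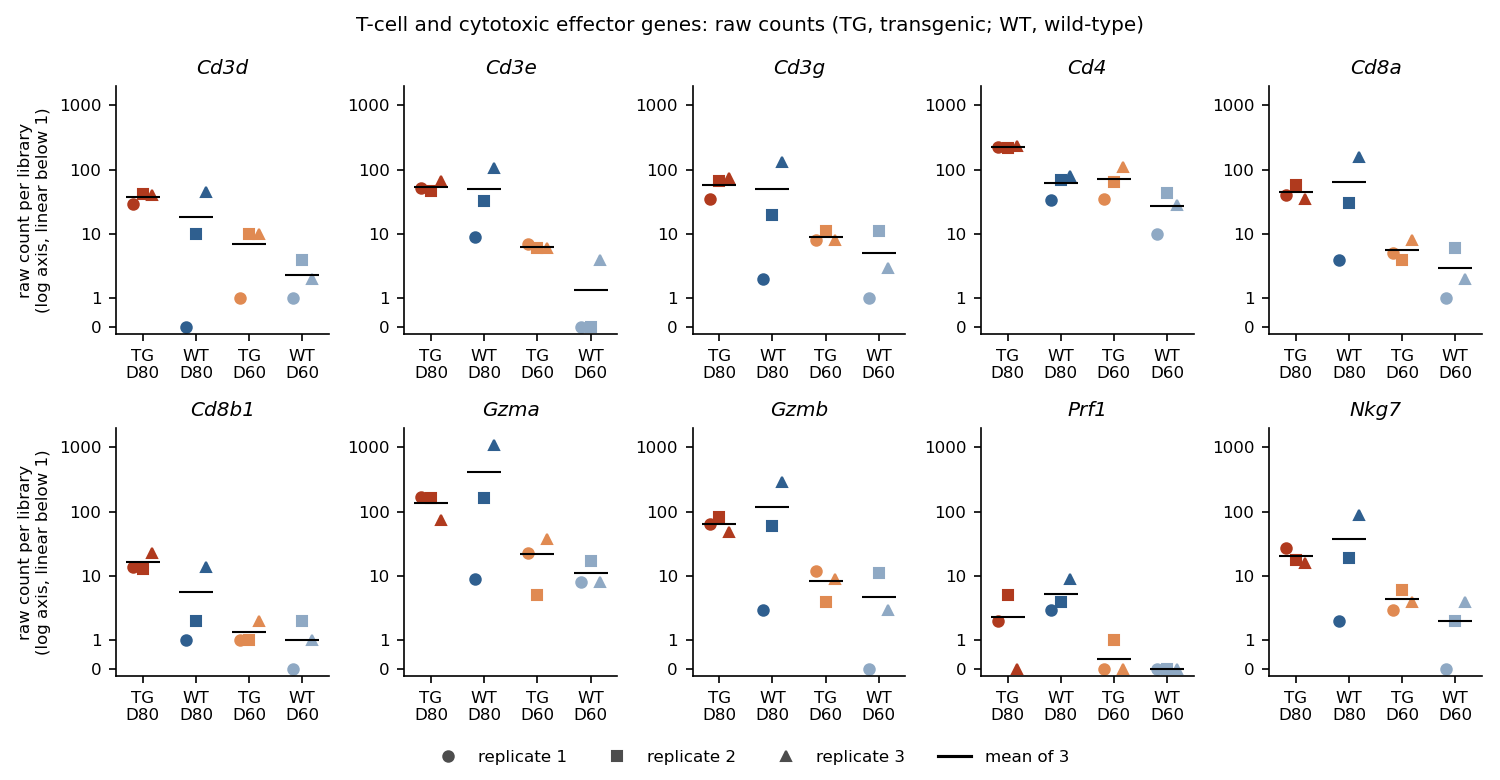
Raw counts of the 10 genes in each library (y axis, logarithmic above 1 count and linear below; points are libraries, shapes are replicate numbers, bars are means of 3) for transgenic (TG) and wild-type (WT) pylorus at D80 and D60. The 3 transgenic D80 libraries lie close together, while the wild-type D80 libraries run from D60-like counts in replicate 1 to 1083 counts of Gzma in replicate 3.

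Prf1 did not pass the filter on low counts, so 9 of the 10 members entered the tests. The filter asks for about 10 counts in at least 3 libraries. Cd8b1 reached 10 counts in 3 transgenic D80 libraries and 1 wild-type D80 library. It therefore entered the tests only through the transgenic D80 group, and its calls as higher in that group are a description. Cd3e, Cd8a and Nkg7 reached 10 counts in D80 libraries only, 3 transgenic and 2 wild-type. They too would not have entered without the transgenic D80 group, and their calls as higher in it are a description. Counts of members past the threshold are given as a description for this reason. All 12 libraries were fitted together with edgeR's quasi-likelihood test over 15369 genes, and p-values were adjusted by the Benjamini-Hochberg method over all of them.

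In the transgenic pylorus 3 T-cell genes rose between D60 and D80. Cd3e was 6.60-fold higher at D80 than at D60 (log2 fold change 2.72, SE 0.83, adjusted p = 0.0248). Cd8b1 was 8.96-fold higher (log2 fold change 3.16, SE 0.90, adjusted p = 0.0180), with 4 counts in all at D60, and Cd4 was 2.49-fold higher (log2 fold change 1.32, SE 0.47, adjusted p = 0.0461). Those 3 of 9 members passed the threshold and none fell, where 17.7% of all genes were higher. The calls on Cd3e and Cd8b1 are a description, since neither gene would have entered the tests without the transgenic D80 group. Values of the 6 others were also positive, between 1.84 for Nkg7 and 2.62 for Gzmb on the log2 scale, with adjusted p from 0.0632 for Cd8a to 0.186 for Nkg7. All 9, and not Prf1, had every D80 library above every D60 library, as did 30.6% of all genes. The median log2 fold change of the 9 was 2.34, against 0.02 for all genes tested.

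The number of members called between ages in transgenic mice depended on the libraries in the fit. When only the 6 transgenic libraries were fitted, without the spread of the wild-type D80 group, 9 of 9 members rose, where 23.7% of genes did. Adjusted p was then between 0.000797 for Cd3e and 0.0249 for Cd3d and Cd4. Of the members tested, only Cd4 reached 10 counts in 3 transgenic D60 libraries, so the others entered this fit through the transgenic D80 group. Their calls as higher in it are a description. In the fit of all groups 6 members were called without wild-type D80 replicate 3 (20.1% of genes) and 8 without wild-type D80 replicate 1 (21.4%). None was called without transgenic D60 replicate 1 (12% of genes), transgenic D60 replicate 2 (17.1%) or transgenic D80 replicate 3 (13.1%), and 1, Cd8b1, without transgenic D80 replicate 2 (11.6%). Of the duodenal genes 1 of 14 was called higher at D80, below the share of all genes, although the summed level of the list was higher in each transgenic D80 library than in each transgenic D60 library. The median log2 fold change of the duodenal list was 1.87, and 13 of 14 values were positive. Of the pan-leukocyte genes 9 of 12 were called higher, with a median of 1.59 and 12 of 12 values positive. The part of either list in the rise of the members was not tested.

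At D80 the comparison of genotypes asks whether the transgenic pylorus held more T-cell RNA than the wild-type pylorus of the same age. Cd4 was the member that rose, 2.80-fold higher in transgenic libraries (log2 fold change 1.48, SE 0.47, adjusted p = 0.0258), and its groups did not overlap. That is 1 of 9 members, where 19.4% of all genes were higher, and 1 of 10 members with no overlap, where 24.4% of genes had every transgenic library above every wild-type library. Of the 8 others, Cd8b1 and Cd3d had positive log2 fold changes of 1.13 (95% interval -0.44 to 2.70) and 0.63 (-1.35 to 2.60). Gzma had the lowest, -2.02 (-4.35 to 0.31, adjusted p = 0.150), followed by Nkg7 at -1.28 (-3.17 to 0.61), Gzmb at -1.25 (-3.43 to 0.92) and Cd8a at -0.90 (-2.74 to 0.94). Cd3e, at -0.27 (-1.81 to 1.27), and Cd3g, at -0.20 (-2.18 to 1.78), were nearest to 0 and turned positive, at 0.22 and 0.32, when libraries were scaled by their totals alone. Each of these 8 intervals held 0. The median of the 9 was -0.27, against -0.07 for all genes, and with library totals alone 0.22, against 0.34.

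**Figure D2:**
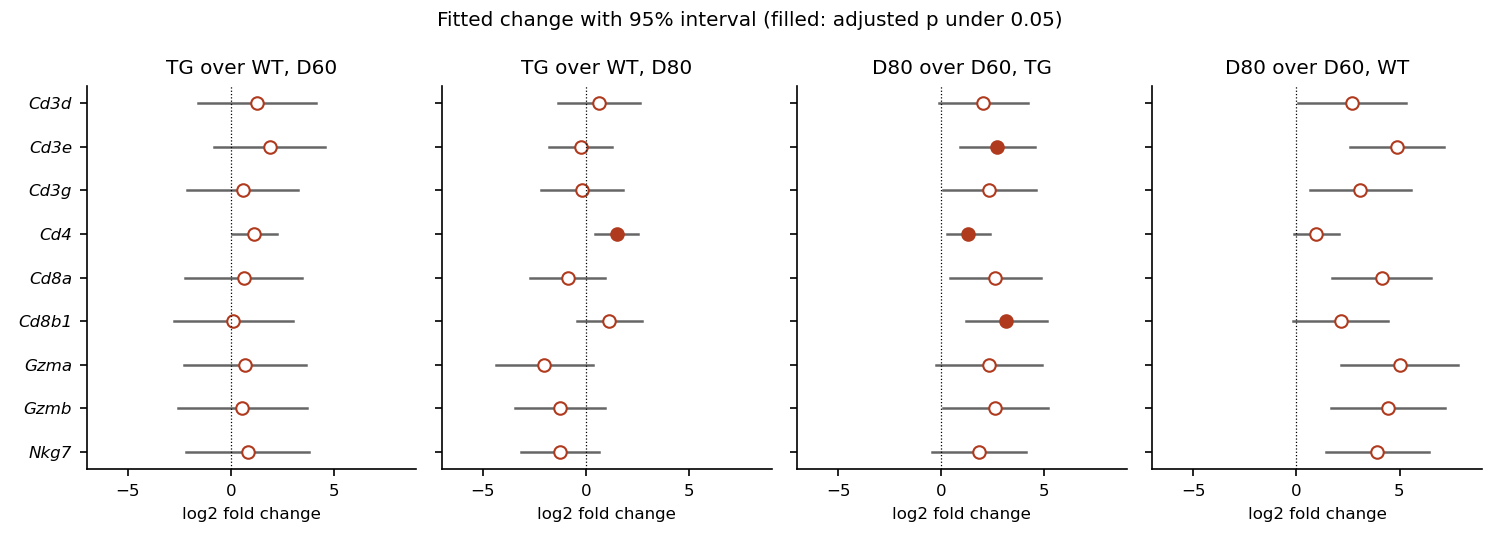
Fitted log2 fold change (x axis) of the 9 tested members, with 95% intervals as lines, for transgenic (TG) over wild-type (WT) at D60 and D80 and for D80 over D60 in each genotype. Filled points passed an adjusted p of 0.05, which were Cd4 at D80 and Cd3e, Cd4 and Cd8b1 between ages in transgenic mice.

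Single wild-type D80 libraries turned the D80 result. Without wild-type D80 replicate 3, the library richest in duodenal transcripts, Cd8b1 rose in transgenic mice (log2 fold change 2.98, adjusted p = 0.00981) beside Cd4 (1.72, adjusted p = 0.0304), 2 of 9 members where 18% of genes were higher. The other 7 values were then positive too, from 0.24 for Gzma to 2.48 for Cd3d, with adjusted p between 0.0625 and 0.852. Without wild-type D80 replicate 1, the library poorest in duodenal transcripts, Gzma (-2.60, adjusted p = 0.0104), Gzmb (-1.83, adjusted p = 0.0425) and Nkg7 (-1.85, adjusted p = 0.0296) fell in transgenic mice, where 23.8% of genes were lower. Cd4 was then not called (1.17, adjusted p = 0.0608), and no member was higher, where 21.6% of genes were. The call on Cd4 was also lost, with 0 members higher, without wild-type D80 replicate 2 (16.2% of genes higher), transgenic D80 replicate 2 (15.4%) or transgenic D80 replicate 3 (16.3%).

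**Figure D3:**
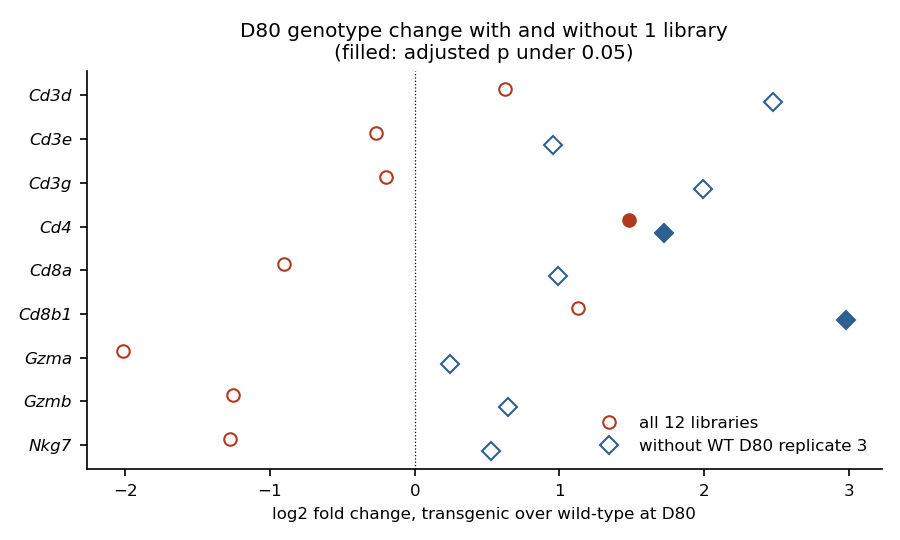
Log2 fold change of transgenic over wild-type at D80 (x axis) of the 9 tested members in the fit of all 12 libraries (circles) and without wild-type D80 replicate 3 (diamonds), with filled symbols past an adjusted p of 0.05. Without that library all 9 values are positive, and for Gzma the value is 0.24 in place of -2.02.

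In wild-type mice the members were also higher at D80 than at D60 on average, and none passed the test. Age and sex coincided in these 6 libraries. The log2 fold changes were between 0.97 for Cd4 and 5.0 for Gzma, with adjusted p of at least 0.279, and the median was 3.92, against 0.04 for all genes. EdgeR's test called 0% of genes in this comparison, and 1925 genes and 7 members had an unadjusted p under 0.05. DESeq2 called 254 genes, and 5 members among them (Cd3e, Cd8a, Gzma, Gzmb and Nkg7) were higher, where 1.09% of the genes it tested were higher. Limma-voom called 0 genes. Without wild-type D80 replicate 1, edgeR's test called 6 members higher (Cd3e, Cd3g, Cd8a, Gzma, Gzmb and Nkg7), where 2.41% of genes were higher. In 2 of the 10 members, Cd3e and Prf1, every D80 library stood above every D60 library, as in 7.06% of genes. The age effect in the 2 genotypes was compared by the interaction term, which called 5% of genes and none of the 9 members, with adjusted p between 0.379 for Gzma and 0.846 for Cd3d. No member had an unadjusted p under 0.05 in the interaction, where 3567 of all genes did, and DESeq2 and limma-voom called none.

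At D60 no member differed between genotypes, where 3.9% of genes did, 562 higher and 37 lower in transgenic mice. All 9 log2 fold changes were positive, from 0.12 for Cd8b1, which rested on 4 and 3 counts, to 1.88 for Cd3e, and the adjusted p of Cd4, the smallest, was 0.316 (log2 fold change 1.14). Only Cd4 had an unadjusted p under 0.05, where 2255 of all genes did, and DESeq2 and limma-voom called no member. Cd3e was the 1 of 10 members whose groups did not overlap, against 12.2% of genes. Genotype and sex coincided in these 6 libraries, as given above.

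Shares within a library do not depend on its scaling, and 2 of the 4 described here set wild-type D80 replicate 3 apart from all other libraries. The 3 CD3 chains held 16.9%, 20.7% and 13.3% of the summed counts of CD3 and Ptprc, the pan-leukocyte phosphatase CD45, in transgenic D80 libraries, against 13.1%, 26.7% and 54.3% in wild-type D80 libraries. The 2 CD8 chains held 19.8%, 24.1% and 19.7% of the counts of CD8 and Cd4 in transgenic D80 libraries, against 12.8%, 31.4% and 68.0% in wild-type D80 libraries. The transgenic values lay close together, and wild-type D80 replicate 3 was the only library in which CD8 counts outnumbered those of Cd4. Gzma, Gzmb, Prf1 and Nkg7 held 69.7%, 63.6% and 43.4% of the counts of granule genes and CD3 chains in transgenic D80 libraries, against 60.7%, 79.7% and 84.0% in wild-type D80 libraries.

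The beta chain took a larger share of CD8 in transgenic than in wild-type D80 libraries on average, and the libraries overlapped. Cd8b1 was 14 of 55 CD8 counts (25.5%, 95% exact Clopper-Pearson interval 14.7 to 39.0), 13 of 70 (18.6%, 10.3 to 29.7) and 23 of 58 (39.7%, 27.1 to 53.4) in transgenic D80 libraries. In wild-type D80 libraries it was 1 of 5 (20%, 0.505 to 71.6), 2 of 32 (6.25%, 0.766 to 20.8) and 14 of 170 (8.24%, 4.58 to 13.4). Wild-type D80 replicate 3 thus had an interval below those of transgenic replicates 1 and 3 and overlapping that of replicate 2, and these intervals cover counting error only. The mean share was 27.9% ± 10.8 in transgenic and 11.5% ± 7.43 in wild-type D80 libraries (SD, n = 3 each), and an exact two-sided permutation test over libraries gave p = 0.2. None of the 8 genotype comparisons of these 4 shares at the 2 ages reached an adjusted p under 0.8, and 3 libraries against 3 cannot give a p under 0.1 in this exact test.

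**Figure D4:**
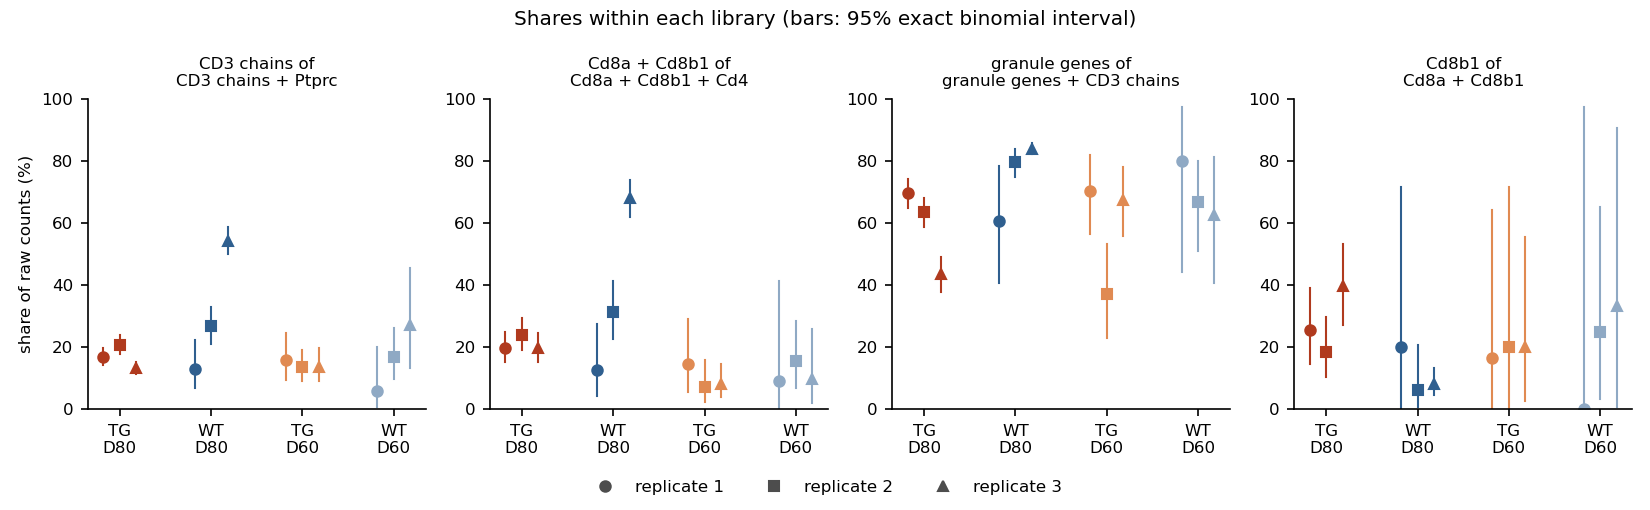
Shares of raw counts within each library in percent (y axis; points are libraries, shapes are replicate numbers, lines are 95% exact binomial intervals) for transgenic (TG) and wild-type (WT) pylorus at D80 and D60. Wild-type D80 replicate 3 stands apart in the CD3 share of CD3 and Ptprc, at 54.3%, and in the CD8 share of CD8 and Cd4, at 68.0%.

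Per kilobase of annotated exon, Gzma had the highest mean of the 10 members in each of the 4 groups and Prf1 the lowest. In transgenic D80 libraries Gzma was at 4.46 ± 1.94 CPM per kilobase, followed by Cd4 at 1.83 ± 0.180 and Gzmb at 1.51 ± 0.557 (SD, n = 3). Cd4 and Gzmb did not differ beyond their spread. Nkg7, Cd3d, Cd3g, Cd3e, Cd8a and Cd8b1 followed at 0.719 to 0.362, each within the SD of its neighbour, and Prf1 was at 0.0315 ± 0.0364. In wild-type D80 libraries Gzma was at 18.1 ± 24.99 CPM per kilobase, Gzmb at 3.6 ± 4.65 and Nkg7 at 1.76 ± 2.21, and Cd4 stood sixth at 0.656 ± 0.276. At D60 Gzma and Cd4 had the 2 highest means, 0.901 ± 0.680 and 0.736 ± 0.418 in transgenic libraries and 0.555 ± 0.216 and 0.329 ± 0.175 in wild-type libraries. Their libraries overlapped in both genotypes, so their order at D60 is not resolved.

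Beside the members, a list of T-cell receptor and T-cell surface genes was followed. It held 24 genes, of which 21 were in the table and 18 were tested. At D80, 4 of the 18 were higher in transgenic mice, a share close to the 19.4% of all genes, and none was lower, where 22% of all genes were. The median log2 fold change was 0.91. They were Thy1 (3.68, adjusted p = 8.25e-06), the interleukin-7 receptor Il7r (2.48, adjusted p = 0.000949), the adaptor Lcp2 (1.70, adjusted p = 0.00396) and the adhesion receptor Cd2 (2.17, adjusted p = 0.0240). Without wild-type D80 replicate 3, 11 of 19 tested genes of the list were higher at D80, where 18% of all genes were. Thy1 had 5257, 8876 and 9214 counts in transgenic D80 libraries, against 587, 341 and 490 in wild-type D80 libraries, more than any CD3 chain. It is also expressed by neurons and fibroblasts. The kinase Lck, which starts the signal of the receptor, was not among them (0.85, adjusted p = 0.310), with 104, 120 and 130 counts in transgenic D80 libraries, against 14, 24 and 111 in wild-type D80 libraries.

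Between ages in transgenic mice 8 of the 18 tested genes of that list rose, where 17.7% of all genes did, and none fell. The median log2 fold change was 1.73. Besides Thy1, Il7r and Lcp2 these were Lck (1.94, adjusted p = 0.0412), the adaptors Lat (2.17, adjusted p = 0.0194) and Grap2 (2.26, adjusted p = 0.0118), and the receptors Cd5 (2.5, adjusted p = 0.0338) and Cd6 (3.01, adjusted p = 0.0103). The number was 4 without transgenic D60 replicate 1 (12% of all genes) and 5 without transgenic D60 replicate 2 (17.1%), D80 replicate 2 (11.6%) or D80 replicate 3 (13.1%). Lat, the scaffold of the receptor signal, had 47, 60 and 67 counts in transgenic D80 libraries and 4, 7 and 19 in transgenic D60 libraries. Cd247, the zeta chain that completes the CD3 complex, did not follow the CD3 chains, with 33, 38 and 78 counts in transgenic D80 libraries and 22, 23 and 41 in transgenic D60 libraries (0.42, adjusted p = 0.530).

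Genes of intraepithelial lymphocytes did not pass the test between genotypes at D80, 0 of the 10 tested by edgeR, where 19.4% of all genes were higher. Between ages in transgenic mice 4 of the 10 rose, where 17.7% of all genes did. At an unadjusted p under 0.05 there were 3 at D80, DESeq2 and limma-voom called 1 each, and with library totals alone edgeR called 3, where 33.2% of all genes were then higher. The integrin chain Itgae, which holds T cells to epithelium, had 127, 90 and 100 counts in transgenic D80 libraries, against 25, 70 and 188 in wild-type D80 libraries. The surface receptor Cd7 had 74, 62 and 53 counts in transgenic D80 libraries, against 2, 54 and 272 in wild-type D80 libraries. Both followed the granule genes in having their highest value in wild-type D80 replicate 3. Of the 4 that rose with age, Itgb7, the beta chain paired with Itgae, had a log2 fold change of 1.53 (adjusted p = 0.0221) and Cd244, a receptor of killer cells, 2.12 (adjusted p = 0.00516).

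The table held 19 other effector molecules, of which 9 were tested, and 4 were higher in transgenic mice at D80, where 19.4% of all genes were, and none lower. These were the cytokines Tnf (2.68, adjusted p = 0.00451) and Ltb (2.72, adjusted p = 0.00216) and the chemokines Ccl3 (3.87, adjusted p = 0.00273) and Ccl4 (2.92, adjusted p = 0.0164), which macrophages and other leukocytes also make. Ccl5, a chemokine of killer T cells, had 72, 108 and 87 counts in transgenic D80 libraries, against 19, 80 and 480 in wild-type D80 libraries (-1.51, adjusted p = 0.160). Interferon gamma (Ifng) had 0, 1 and 3 counts in transgenic D80 libraries, against 0, 0 and 0 in wild-type D80 libraries, and was not tested. The death ligand Fasl, with 4, 3 and 5 counts in transgenic D80 libraries, against 1, 4 and 3 in wild-type D80 libraries, and Gzmk, with 1, 3 and 1, against 0, 1 and 7, were not tested either. Gzmm, a granzyme with 47, 16 and 34 counts in transgenic D80 libraries, against 24, 19 and 23 in wild-type D80 libraries, had a log2 fold change of 0.13 (adjusted p = 0.787).

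Of 15 tested genes of granule formation and release, 2 were higher and 6 lower in the transgenic pylorus at D80, where 19.4% of all genes were higher and 22% lower. With library totals alone, which moved the median of all genes by over 0.1, 5 were higher and 3 lower, where 33.2% of all genes were higher and 6.51% lower, and Unc13d, Rab27a and Vamp8 were the 3 that stayed lower. The granule proteoglycan Srgn (2.41, adjusted p = 0.000882) and the protease Ctsl (2.16, adjusted p = 1.03e-05) were higher. The priming factor Unc13d (-1.08, adjusted p = 0.00163), the small GTPase Rab27a (-1.09, adjusted p = 0.00322), Vamp8 (-0.90, adjusted p = 0.00199), Stxbp2 (-0.59, adjusted p = 0.00583), Vti1b (-0.52, adjusted p = 0.00183) and Snap23 (-0.45, adjusted p = 0.00718) were lower. These genes also serve secretion in epithelial cells, and Rab27a alone had 4463 to 6208 counts in transgenic D80 libraries, against 5823 to 10014 in wild-type D80 libraries. Marker genes of the stomach epithelium fell in the same libraries, 7 of 9 at D80, and their part in the change of these genes was not tested. Of the serpins that inhibit granzymes and related proteases, 6 were tested, and 3 were higher and 1 lower at D80, against the same shares of all genes. Serpinb9, the inhibitor of granzyme B (0.75, adjusted p = 0.0162), Serpina3g (2.29, adjusted p = 0.0119) and Serpina3n (3.91, adjusted p = 0.000914) were higher. Serpinb6a was lower (-0.83, adjusted p = 0.0298), a call lost with library totals alone (-0.37, adjusted p = 0.192).

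Among transcription factors of effector cells, 4 of 10 tested were higher in transgenic mice at D80, where 19.4% of all genes were, and none lower. Runx3, which acts in killer T cells, had 115, 163 and 250 counts in transgenic D80 libraries, against 19, 21 and 49 in wild-type D80 libraries (2.17, adjusted p = 0.0117). Foxp3, the factor of regulatory T cells, had 46, 48 and 58 counts in transgenic D80 libraries, against 0, 3 and 2 in wild-type D80 libraries (4.43, adjusted p = 0.00128). At D80 only transgenic libraries reached the 10 counts of the filter, so this call is given as a description. Wild-type D80 replicate 3, the highest library for the CD3 chains, had 2 counts of Foxp3. Ets1 (1.09, adjusted p = 0.0109) and Ikzf1 (0.91, adjusted p = 0.0373) were the other 2. The master factors of killer cells were near the floor, with Tbx21 at 4, 12 and 9 counts in transgenic D80 libraries, against 0, 3 and 11 in wild-type D80 libraries, and Eomes at 1, 1 and 1, against 0, 1 and 1.

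Markers of other cells that carry some of the members were also compared at D80, where 19.4% of all genes were higher and 22% lower. Of 15 genes of natural killer cells 5 were tested, and Klrb1b (1.38, adjusted p = 0.0362) and Klrg1 (2.11, adjusted p = 0.0254) were higher at D80. The list summed to 6.22 to 8.96 CPM in transgenic D80 libraries and 1.67 to 9.58 CPM in wild-type D80 libraries. Ncr1, the receptor that defines natural killer cells, had 2, 3 and 4 counts in transgenic D80 libraries, against 1, 0 and 4 in wild-type D80 libraries. A mast cell list, set up with Gzmb in it and counted here without it, held 13 genes. Of its 8 tested genes 4 were higher at D80 and none lower. The 13 genes summed to 300 to 370 CPM in transgenic D80 libraries and 52.5 to 60.7 CPM in wild-type D80 libraries. Of 14 macrophage and dendritic cell genes, from cells that can also express Cd4, 10 were higher at D80 and none lower, and they summed to 308 to 412 CPM in transgenic D80 libraries and 103 to 168 CPM in wild-type D80 libraries. Among 12 pan-leukocyte genes 9 were higher, with Ptprc at 567, 589 and 1182 counts in transgenic D80 libraries, against 73, 173 and 236 in wild-type D80 libraries (1.86, adjusted p = 0.0105). These 12 genes summed to 320 to 515 CPM in transgenic D80 libraries and to 289, 231 and 266 CPM in wild-type D80 replicates 1, 2 and 3. The part of these cells in the change of Cd4 and the granule genes was not tested. None of the 14 duodenal genes passed edgeR's test at D80, nor DESeq2 or limma-voom, 1 had an unadjusted p under 0.05, and all 14 had negative log2 fold changes, of which 3 turned positive with library totals alone.

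Across the 12 libraries the genes most like the mean log2 CPM of the 9 tested members, by Pearson correlation among 13949 genes, were Adap2 (0.973), Gda (0.967), Xpnpep2 (0.966), Abcg2 (0.966), Gpr155 (0.965) and Slc2a5 (0.965). Gda, guanine deaminase, had 111, 140 and 102 CPM in transgenic D80 libraries, against 16.6, 110 and 500 CPM in wild-type D80 libraries. Slc2a5 is the fructose transporter and Xpnpep2 a peptidase of the intestinal brush border. Without wild-type D80 replicate 3 the 6 genes were Adap2 (0.973), Barx2 (0.971), Abcg2 (0.970), Mmp10 (0.961), Cd302 (0.959) and Abat (0.953). Adap2 and Abcg2 stood in both lists. The libraries share their groups and their neighbouring tissue, so these correlations are a description.

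**Figure D5:**
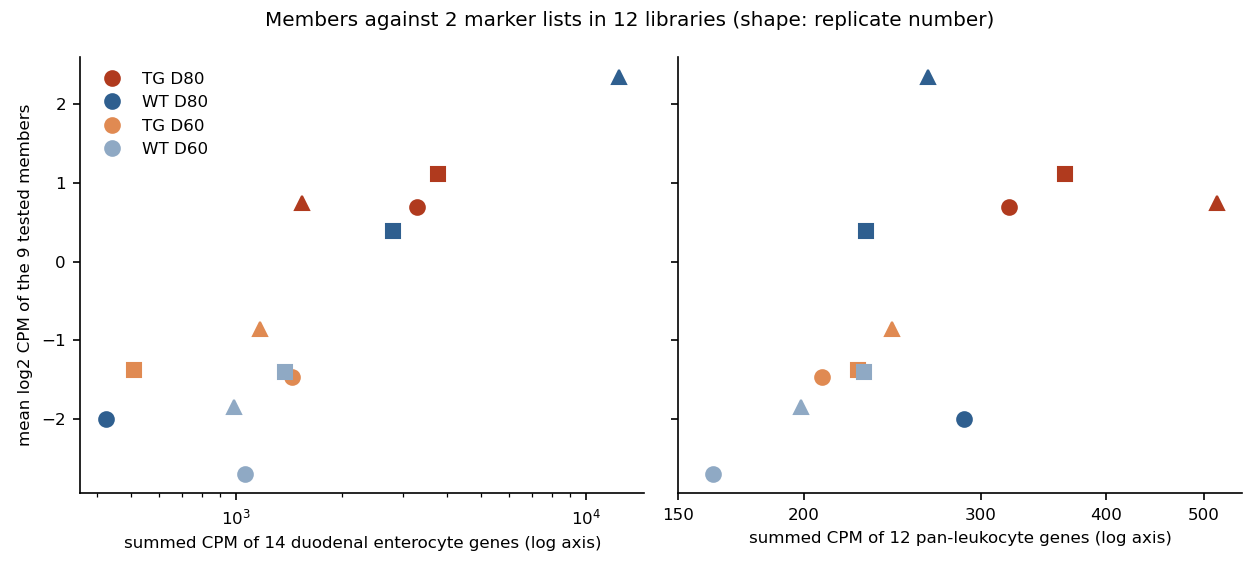
Mean log2 CPM of the 9 tested members (y axis) against the summed CPM of 14 duodenal enterocyte genes (left) and of 12 pan-leukocyte genes (right), both on logarithmic axes, with 1 point per library coloured by group. Wild-type D80 replicate 3 is highest on the y axis, at 2.34, and on the duodenal axis, at 12371 CPM, and wild-type D80 replicate 1 is low on both, at -2.0 and 424 CPM. On the pan-leukocyte axis wild-type D80 replicates 1, 2 and 3 stand at 289, 231 and 266 CPM.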

How the data were processed

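The authors deposited raw counts per gene, without normalization, for 12 libraries of bulk pylorus RNA. A second, normalized table was not used here. Per the labels' protocols, the library kit was an Illumina kit for stranded mRNA. Per the submitters' processing notes the tools were HTSeq 0.9.1, STAR 2.5.3a and edgeR 3.16.5 and the build mm10, with no roles stated. The annotation and the strand setting used for counting are not stated in those notes. The members and all gene lists were chosen with earlier results of these data known.

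The tests used edgeR 4.0.16, DESeq2 1.42.0 and limma 3.58.1 under R 4.3.3. The edgeR filter (filterByExpr with the 4 groups, minimum count 10) kept 15369 genes with 99.975% of the counts, and 4513 genes had 0 counts in all libraries. TMM factors were 0.805 to 1.30, and the quasi-likelihood fit, which had 1 mean per group, left 8 residual degrees of freedom, with a biological coefficient of variation of 24.2%. The threshold was an adjusted p of 0.05. Log2 CPM for the likeness of genes used a prior count of 2 and genes with a mean of at least 1 CPM. List genes are named by smallest p-value and by passing the threshold, up to 6 per list and comparison, beside a few fixed markers. Shares were tested with SciPy 1.17.1. Gene coordinates are from GENCODE M21 (GRCm38), lengths are the union of exons, and promoters are from RefSeq. The model was run on simulated data with 1 common spread for all genes and groups. That run does not cover the wider spread of the members in wild-type D80 libraries. Intervals of shares and floors cover counting error only, while intervals of fold changes come from the fitted spread between libraries. Replicate numbers were not used to pair libraries. Residuals of same-number libraries correlated at -0.004 on average over 18 pairs (-0.34 to 0.39). Pairs with different numbers were not compared, so this does not exclude pairing between some groups.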

Additional observations from a re-analysis of the deposited data

Results flagged for a closer look

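Thy1 and Ctsl were the 2 genes, among the members and the T-cell, granule and killer-cell lists, whose genotype effect differed between ages by the interaction term of edgeR's quasi-likelihood test. The log2 fold change of Thy1 between genotypes was larger at D80 than at D60 by 2.82 (adjusted p = 0.00816). Thy1 averaged 256.9 ± 88.2 CPM in transgenic D80 and 20.04 ± 4.52 in wild-type D80 libraries, and 36.8 ± 13.2 CPM in transgenic D60 and 20.4 ± 1.66 in wild-type D60 libraries (SD, n = 3 each). That of Ctsl was larger at D80 by 1.41 (adjusted p = 0.0158), and Ctsl averaged 505.6 ± 125.1 CPM in transgenic D80 and 113.1 ± 16.0 in wild-type D80 libraries. Genotype and sex coincided at D60, so the interaction is not free of sex. Of 5 sex transcripts, 4 were called higher and 1 lower in it. Whether Thy1 and Ctsl keep their calls with sex as a covariate was not followed.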

How the results depend on the processing

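Low counts and the spread of the wild-type D80 libraries limit these results, and the cause of that spread was not tested. In the order D60 genotypes, D80 genotypes, transgenic ages, wild-type ages and interaction, edgeR's test called 599, 6354, 5490, 0 and 768 genes. In the same order a replicate block, whose numbers are not known to pair libraries, called 611, 5993, 5189, 0 and 635. With it 4 members were called between ages in transgenic mice. DESeq2 called 992 genes between D60 genotypes, 254 between wild-type ages (5 members) and 1745 in the interaction. Between transgenic ages it called 6126 genes, 5 members among them. Limma-voom called 423 genes in the interaction. Sex as a covariate called 85 genes between D60 genotypes, 1 between wild-type ages and 99 in the interaction. Fitting only the 2 groups compared called 5 genes between wild-type ages and 9 members between transgenic ages. All of these members but Cd4 entered that fit through the transgenic D80 group. With wild-type D80 replicate 3 and transgenic D80 replicate 1 both left out, 7 genes were called between wild-type ages. Between D80 genotypes 2 members were then called, a count given without the share of all genes. Leaving out each library in turn, 378 to 736 genes were called between D60 genotypes, 3507 to 6594 between transgenic ages, 0 to 396 between wild-type ages and 193 to 2419 in the interaction. Members called were 0 to 3 between D80 genotypes, 0 to 8 between transgenic ages and 0 to 6 between wild-type ages. The largest of these counts came without wild-type D80 replicate 1. In that run 23.8% of all genes were lower between D80 genotypes, 21.4% higher between transgenic ages and 2.41% higher between wild-type ages. Library totals alone moved the median log2 fold change of all genes at D80 to 0.34, against -0.07, and between transgenic ages to 0.39, against 0.02, and the share of called genes that were higher to 83.6%, against 46.8%, and 82.4%, against 49.6%. In the interaction that share was 79.3% with library totals alone and 64.7% with relative log expression factors, against 55.3%.

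The signs of members that passed no test were the least stable. Between D60 genotypes, Cd3g (-0.58) and Cd8b1 (-0.39) turned negative with sex as a covariate, and Cd8b1 ran from -0.34 to 0.94 when each library was left out. Between D80 genotypes, values turned positive for Cd3e (0.22 with library totals alone, 0.39 with limma-voom, 0.15 with the replicate block), Cd3g (0.32, 0.36 with the block, 1.19 with limma-voom, 0.10 with sex as a covariate), Cd8a (0.28 with limma-voom) and Gzmb (0.34 with limma-voom). With both libraries left out they were 1.05 for Cd3e, 2.29 for Cd3g, 1.10 for Cd8a, 0.12 for Gzma, 0.73 for Gzmb and 0.34 for Nkg7. Leaving out 1 library gave -0.78 to 0.96 for Cd3e, -0.77 to 1.99 for Cd3g, -1.46 to 0.99 for Cd8a, -2.60 to 0.24 for Gzma, -1.83 to 0.65 for Gzmb and -1.85 to 0.53 for Nkg7. In the interaction, Cd3d was 1.48 with limma-voom, 0.25 with sex as a covariate and 1.41 with both left out, Cd3g 0.30, 0.68 and 1.72, and with both left out Cd8a was 0.48 and Gzmb 0.16. Leaving out 1 library there gave -1.23 to 1.21 for Cd3d, -1.97 to 1.42 for Cd3g, -0.094 to 0.86 for Cd4, -2.40 to 0.37 for Cd8a and -3.32 to 0.086 for Gzmb. Between ages in either genotype no member changed sign under any alternative run.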
